A study of Oryza sativa with 239 samples.

Results

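The 100 genes described here were those whose transcript level was higher in drought-treated than in irrigated rice leaves by the most even margin over cultivars. They were the 100 with the largest positive mean change divided by its SD over 39 cultivars, out of 14566 genes that averaged at least 5 CPM (read counts scaled to a common library total, with TMM factors between libraries) and 55986 gene models in the table. The change of a cultivar was the mean of log2(CPM + 1) over its drought libraries minus that over its control libraries. Since drought and control libraries chose the genes, their size and evenness in that comparison are given as a description, with no test. Levels below are in CPM and changes on log2(CPM + 1), unless a sentence says otherwise. Of the 100 genes, 26 were called higher in 1 named set of control libraries than in the other control libraries. Against that set, 14 of the 26 were above 0 in drought leaves and 12 were not, with a median change of 0.05. The other 74 were higher in drought leaves against either set of control libraries. The same libraries chose the genes, which favours the direction seen in the 74.

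Messenger RNA was sequenced from leaves of 40 rice (Oryza sativa) cultivars and lines, grown singly in pots with automatic irrigation in a growth chamber. Most carry a number of the World Rice Core collection (WRC), and the others are KP, Dro1-NIL, IR64 and Koshihikari. The labels do not expand KP, and Dro1-NIL bears the name of DRO1, a rice locus known for deeper rooting. Each cultivar had 3 drought and 3 control libraries, apart from Dro1-NIL with 2 drought libraries. The drought plants were drained and the control plants stayed irrigated, and the fully expanded youngest leaf and the next one were taken on day 5. Titles and characteristics name it moderate drought, but the protocol text speaks of severe drought with later rewatering, and the titles are followed here. No label states that each library came from 1 plant, so p-values measure the spread between these libraries.

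Rice leaves that lose water close their stomata and accumulate abscisic acid, a hormone that switches on protective genes through its receptors, phosphatases and kinases. Other drought genes respond through transcription factors that do not need the hormone. Responses shared by many varieties are used as markers of the stress itself, as opposed to the history of 1 variety. The identifiers of the 100 genes are gene models named by chromosome and position in order, and the reference at hand paired 0 of the 100 with a symbol or function, so no gene below is assigned a role. Leaf cell type markers were not analysed here for the same reason. In whole leaves, a change in cell makeup and a change in RNA per cell cannot be told apart.

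Libraries of at least 1000000 reads were used, which left 235 of 239. Drought libraries held 2.61 M to 59.5 M counted reads (M, mega) and control libraries 5.99 M to 37.4 M. A member had a median of 359 reads per library, and 0 of its values were zero in the 229 libraries of the choice. WRC09 had been left out of the choice, and its plants stand apart. It had 110 genes of at least 5 CPM in every library of 1 treatment with 0 reads in every library of the other, while every other cultivar had 0 such genes, and no member was among the 110. In addition, 3 libraries lay midway between 2 cultivars: WRC16 control 3, WRC16 drought 2 and WRC35 control 3 carried genes of another cultivar at 49.6%, 55.6% and 57.3% of its level. Repeating the choice without these 3 libraries, WRC05 and WRC37, a set picked after the data were seen, kept 88 of the 100 genes.

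A further division ran through the control libraries and bears on every result below. Control libraries are named C1 to C120 and drought libraries D1 to D120, and replicate 3 holds the names from 81 upwards. Control libraries C97 to C120 differed from C1 to C96 in many members. This was noticed in the data, and the labels give no date, plate or sequencing run for any name. The comparison could be made within 23 cultivars, WRC09 aside, each with 1 control library of C97 to C120 and 2 of C1 to C96. In edgeR's quasi-likelihood test with cultivar as a term, 26 of the 100 members were higher in C97 to C120 at a Benjamini-Hochberg adjusted p under 0.05, against 4.66% of all 25129 genes tested, and 14 were lower, against 4.99%. The other 60 did not pass. Drought libraries D97 to D120 set against D1 to D96 in the same way gave 0 members higher and 4 lower, against 0.57% and 0.589% of genes. At an unadjusted p under 0.05 these edgeR counts were 0 higher, against 4.58% of genes, and 29 lower, against 7.47%. DESeq2 was not run on D97 to D120.

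The 26 and the other 74 members differed in their drought change according to which control libraries they were set against. Against C97 to C120, drought libraries of the same 23 cultivars showed a median change of 0.05 over the 26 members, with a range of -0.39 to 0.27, and 12 of the 26 were not above 0. Against C1 to C96 the same 26 had a median change of 0.58 and a range of 0.23 to 2.00. By their median, the 26 were thus about as high in C97 to C120 control leaves as in drought leaves, while 14 of them were above 0. The other 74 kept a change above 0 against either set, with a median of 0.55 against C97 to C120 and 0.42 against C1 to C96. Their lowest value against C97 to C120 was 0.16 and the highest 1.97. The 26 were picked by their level in C97 to C120, and those libraries enter both values, so part of the contrast between the 26 and the 74 follows from the choice. Over all 14566 genes of at least 5 CPM, 7077 were above 0 against C97 to C120 and 7489 were not. Against C1 to C96, 7165 of these genes were above 0 and 7401 were not. All members were chosen for a positive change with these drought and control libraries, which favours signs above 0. Library name and replicate number overlap in C97 to C120, which are all replicate 3. With all 39 cultivars and replicate number as a further term, 16 members were still higher in C97 to C120 by the edgeR test at adjusted p under 0.05 and 0 were lower, against 0.195% and 0.0805% of genes. At an unadjusted p under 0.05 that fit gave 31 higher, against 4.69% of genes, and 2 lower, against 5.02%. Whether growth, harvest or library making sets C97 to C120 apart was not tested. Beyond this division, any difference between the C and the D series as a whole cannot be told apart from drought.

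**Figure D1:**
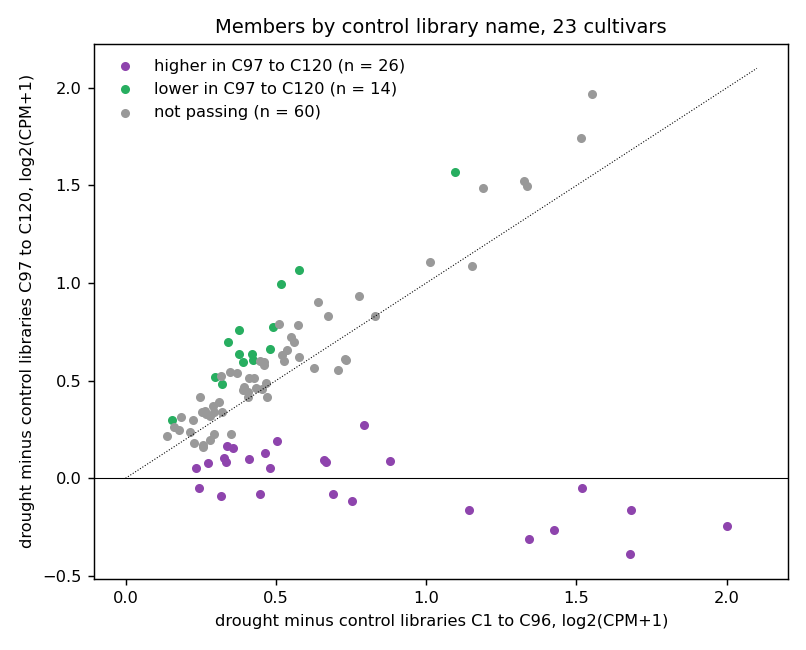
Change of the 100 members in drought leaves of 23 cultivars, on log2(CPM + 1), against control libraries C97 to C120 (vertical axis) and against C1 to C96 (horizontal axis). Each point is a member, colour gives the edgeR call between the control sets, and the dotted line marks equal changes. The 26 members higher in C97 to C120 lie between -0.39 and 0.27 on the vertical axis, and the other 74 between 0.16 and 1.97.

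The members with the largest difference between the control sets show the pattern in CPM, and they were named after their values were seen. LOC_Os04g16826 on chromosome 4 had a median of 15.3 CPM in drought libraries D1 to D96 and 17.5 CPM in D97 to D120, against 18.9 CPM in control libraries C97 to C120 and 2.60 CPM in C1 to C96. Its log2 fold change between the control sets was 2.50 by edgeR's test (Benjamini-Hochberg adjusted p = 3.8e-12). LOC_Os04g16834, a few models further along chromosome 4, had medians of 17.5 CPM in D1 to D96 and 22 CPM in D97 to D120, against 22.7 CPM in C97 to C120 and 4.55 CPM in C1 to C96. In both genes the medians of the drought libraries and of the C97 to C120 controls lay near each other and that of the C1 to C96 controls below them, while single libraries overlapped. The lower calls were smaller. LOC_Os04g10750 on chromosome 4 had medians of 26.5 CPM in D1 to D96 and 21.8 CPM in D97 to D120, against 12.9 CPM in C97 to C120 and 16 CPM in C1 to C96. LOC_Os05g37930 on chromosome 5 had 24.9 CPM in D1 to D96 and 23.1 CPM in D97 to D120, against 7.23 CPM in C97 to C120 and 8.92 CPM in C1 to C96. Both genes had a higher median in drought leaves than in either control set.

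The gene ranked first and the gene ranked second both belong to the 26. LOC_Os01g61830, on chromosome 1, had 38.8 to 79.9 CPM in drought libraries with a median of 54.6, against 31.5 to 67.3 CPM in control libraries with a median of 41.8. Its level averaged 55.1 ± 6.71 CPM in drought leaves and 43.1 ± 6.05 CPM in control leaves (SD over 39 cultivars). The change was 0.36 with an SD of 0.114, and it ranged from 0.12 in WRC04 to 0.55 in WRC34. WRC04 has a control library of C97 to C120 and WRC34 has none. All drought libraries lay above all control libraries in 27 of the 39 cultivars. In IR64, for example, its drought libraries held 51.8, 56.5 and 52.5 CPM and its control libraries 35.7, 34.6 and 46.9 CPM. Set against control libraries C97 to C120 alone, the change was 0.13 in 23 cultivars, and against C1 to C96 it was 0.46. The evenness of this gene is therefore of a step that was smaller where the controls were named C97 to C120.

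LOC_Os03g63040, on chromosome 3 and ranked second, showed a division into levels. Its libraries ran from 36.7 to 103.6 CPM in drought with a median of 69.6, against 31.6 to 90 CPM in control with a median of 42.2. At least 50 CPM was found in 90 of 91 drought libraries D1 to D96 and 20 of 21 drought libraries D97 to D120, and in all 23 control libraries C97 to C120, but in 9 of 94 control libraries C1 to C96. Control libraries C97 to C120 held 62.6 to 90 CPM, within the range of the drought libraries, and the other controls had a median of 41.2 CPM. The mean change over 39 cultivars was 0.57 with an SD of 0.187, from 0.19 in WRC57 to 0.99 in WRC15. WRC57 has a control library of C97 to C120 and WRC15 has none. Against C97 to C120 alone it was -0.11, and against C1 to C96 it was 0.75, in the same 23 cultivars. In Koshihikari the drought libraries had 89.2, 65 and 75.6 CPM and the control libraries 44.7, 41.4 and 84.3 CPM, the last of them replicate 3. By replicate number, the control medians were 39.9, 42.1 and 67.7 CPM and the drought medians 72.6, 69.6 and 68.3 CPM. The 26 genes were common near the top of the ranking, with 6 of the first 10 ranks and 12 of the first 20.

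**Figure D2:**
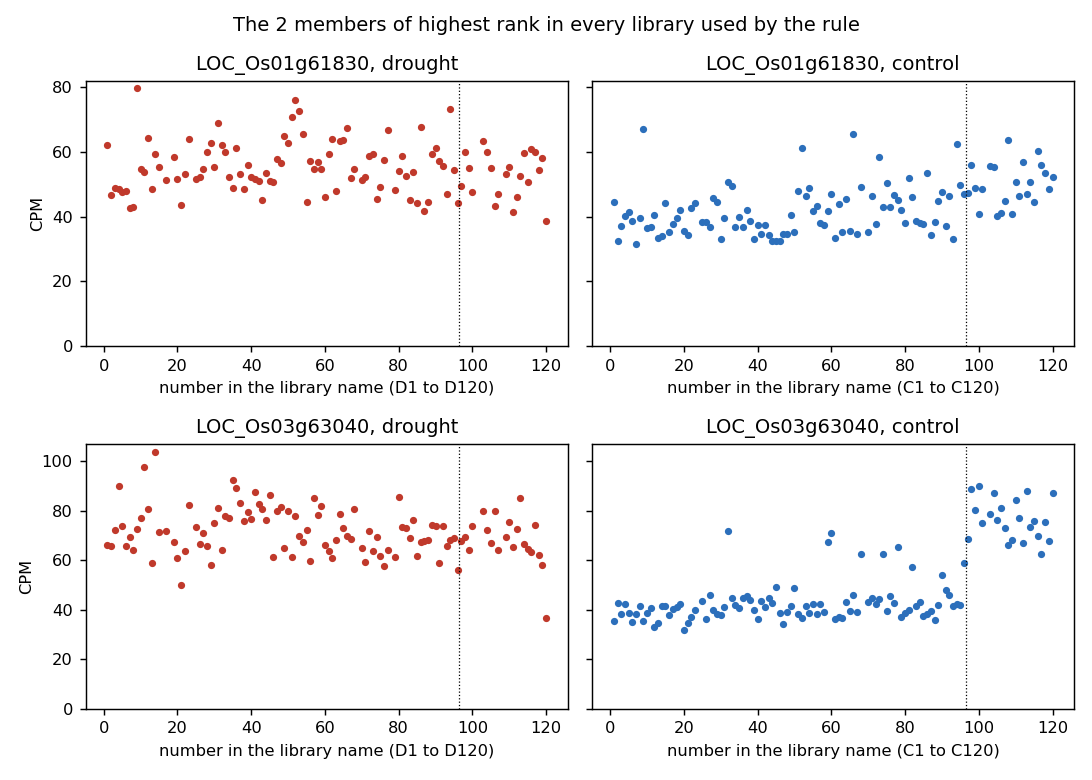
Level of the 2 genes of highest rank, in CPM, in each library used by the choice, in the order of the number in the library name, with drought libraries at left and control libraries at right. The dotted line stands after number 96. For LOC_Os03g63040 the control libraries after the line hold 62.6 to 90 CPM, like the drought libraries, while the control libraries before it have a median of 41.2 CPM.

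Over all members, the mean change ran from 0.17 to 1.57 with a median of 0.47, whereas the median over all 14566 genes was 0.00. The SD over cultivars ran from 0.088 to 0.895 with a median of 0.249, against 0.192 over all genes, so the members were not the genes of smallest spread. The ratio of change to SD that ranked them ran from 1.64 to 3.13. Just inside the limit, ranks 99 and 100 had ratios of 1.63864 and 1.6369 with changes of 0.33 and 0.64. Just outside it, the next 2 ranks had 1.63625 and 1.63319 with changes of 0.19 and 0.25. A change of at least 1, or 2-fold, was reached by 13 members, against 0.227% of all genes, a share that the choice itself raises. Size and spread went together within the list: across the 100 members the Spearman correlation of mean change and SD was 0.96, a description of genes that share libraries. Of the 100 genes with the largest mean change, 21 were members.

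**Figure D3:**
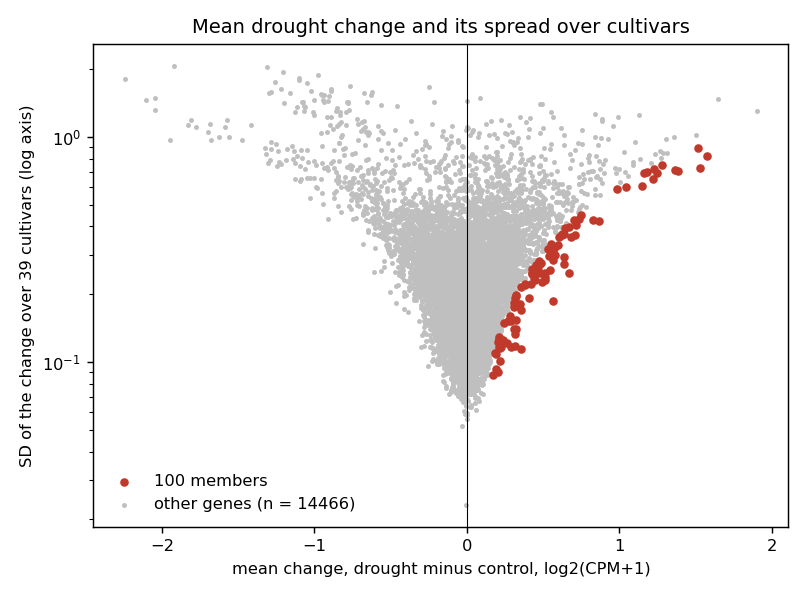
Mean change in drought over 39 cultivars on log2(CPM + 1) (horizontal axis) and its SD over cultivars (vertical log axis) for 14566 genes, with the 100 members in red. The members lie along the right lower edge of the cloud, at changes of 0.17 to 1.57 and SDs of 0.088 to 0.895.

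The direction was shared by nearly all cultivars, which the choice also favours. Of the 100 members, 36 were higher in drought in all 39 cultivars, 40 in 38, 18 in 37, 5 in 36 and 1 in 35. At least 38 cultivars were reached by 0.844% of all genes. Of 3900 pairs of member and cultivar, 3805 were above 0, or 97.6%, against 49% of the pairs over all genes. All drought libraries lay above all control libraries in 44.4% of the member pairs and in 8.5% of the pairs over all genes. The 95 pairs below 0 were spread over 23 cultivars, and the other 16 cultivars had all 100 members higher in drought. Variation of the change was shared between members, which took 48% of it, and cultivars, which took 11.4%, with 40.7% remaining. That remainder holds the spread between libraries as well as any difference particular to pairs of member and cultivar, and these were not separated.

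The members had a median level near that of all genes, without the most abundant ones. Mean levels ran from 5.55 to 894 CPM with a median of 24.5, against a median of 24.7 CPM and a highest value of 17782.5 CPM over all 14566 genes. The most abundant member was LOC_Os07g49400 on chromosome 7, with 1003 ± 149 CPM in drought leaves and 789 ± 131 CPM in control leaves (SD over 39 cultivars). Its change was 0.48 against control libraries C97 to C120 and 0.32 against C1 to C96, above 0 with either. The least abundant was LOC_Os03g53080 on chromosome 3, with 6.51 ± 1.24 CPM in drought leaves and 4.63 ± 1.04 CPM in control leaves, and this gene is among the 26, with a change of 0.19 against C97 to C120 and 0.50 against C1 to C96. Together the members made up a median of 6354 CPM in drought libraries and 4673 CPM in control libraries. All 12 chromosomes carried members, from 2 on chromosome 11 to 18 on chromosome 3, where 4.8% and 13.9% of all genes of at least 5 CPM lie. Chromosome 2 held 5 members and 12.1% of those genes. There were 5 pairs of members whose identifiers lay within 10 numbers, LOC_Os04g16826 and LOC_Os04g16834 among them, and reads from overlapping or antisense models cannot be told apart, because the strand setting of the counting is not given in the sources used here.

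Cultivars differed in the mean change of the 100 members, which averaged 0.56 with an SD of 0.165 over 39 cultivars. WRC24 had the largest, 1.07 ± 0.274 (SD of 3 same-numbered differences), followed by WRC01 and WRC15 with 0.83 and 0.80. Of the 100 members, 35 had their largest change in WRC24. No share over all genes is given beside that count, so it does not set the members apart from other genes. The smallest mean changes were 0.26 ± 0.173 in WRC32 and 0.29 ± 0.384 in WRC44, where 14 and 20 members were below 0. WRC32 and WRC44 differ by less than either of their SDs. Control sets were unlike across these cultivars, since 23 of the 39 have 1 control library of C97 to C120. WRC24, WRC32 and WRC44 are among the 23, while WRC01 and WRC15 are not. How far this enters the order of cultivars was not tested. The mean member level of every drought library lay above that of every control library in 36 of the 39 cultivars, with WRC44, WRC46 and WRC57 as the exceptions. This separation is favoured by the choice, which used these libraries. In the same cultivars the median change over all genes lay between -0.03 and 0.03, and TMM scaling draws that median towards 0. KP had a mean change of 0.66 ± 0.0605, Dro1-NIL 0.74, Koshihikari 0.71 and IR64 0.58.

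**Figure D4:**
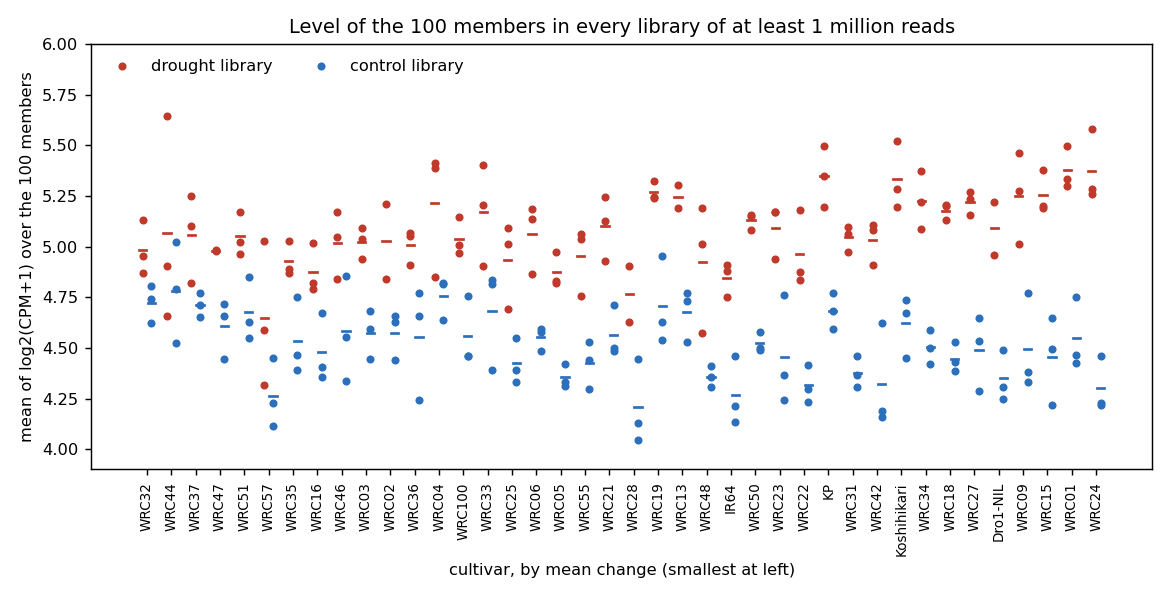
Mean of log2(CPM + 1) over the 100 members in each library of at least 1000000 reads, with drought libraries in red at left and control libraries in blue at right of each cultivar, ordered by mean change. Points are libraries and short lines are means. In 36 of the 39 cultivars of the choice, all drought points lie above all control points, which the choice itself favours.

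Replicate numbers gave similar values for the list as a whole. The members' median change was 0.41 from replicate 1 in 37 cultivars, 0.51 from replicate 2 in 38 and 0.44 from replicate 3 in 37. Over all genes of at least 5 CPM these medians were 0.005, 0.001 and -0.019. All 100 members were above 0 in replicates 1 and 2, and 99 in replicate 3, where LOC_Os08g39090 on chromosome 8, named after its value was seen, was at -0.02. The same libraries chose the members, which favours these signs. Single members moved more than the list as a whole. The range of a member's change over the 3 numbers exceeded its mean change in 18 members, and it had a median of 0.24, against 0.12 over all genes. Drought libraries of replicate 3 were shallower, with a median of 6.67 M reads, against 21.8 M and 17.7 M in replicates 1 and 2.

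WRC09 offered libraries that the choice had not used. In edgeR's quasi-likelihood test over a model of all 80 cultivar and treatment groups, 26 members were higher in WRC09 drought leaves at a Benjamini-Hochberg adjusted p under 0.05 and a fold of at least 2, against 5.36% of all 28266 genes tested. At that fold 1 member was lower, against 5.71% of genes. At any fold 59 members were higher and 1 lower, against 8.1% and 9.01% of genes, and 40 did not pass. The members' median log2 fold change was 0.70, against 0.00 over all genes tested, and 92 members were above 0. Among the next 100 genes in the ranking, 30 were called higher in WRC09 at a fold of at least 2. The median log2 fold change of those next 100 genes was 0.64. The WRC09 calls therefore do not set the members apart from the genes ranked just below them. Of the 26 members set apart by library name, 1 was called higher in WRC09 at 2-fold, and of the other 74, 25 were. The control plants and the drought plants of WRC09 differ in which genes they carry, as given above, and the part of that difference in these calls was not tested. Without replicate 2, 10 members were called higher at that fold, against 3.12% of genes in the same fit.

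Among the WRC09 calls, LOC_Os02g12890 on chromosome 2 had the largest fold change. It held 67.7, 299 and 139 CPM in WRC09 drought libraries, against 4.97, 12.3 and 17.4 CPM in WRC09 control libraries, a log2 fold change of 3.86 in edgeR's test (adjusted p = 1.7e-06). LOC_Os04g10750, met above as lower in C97 to C120, held 46.3, 62.9 and 46.9 CPM in drought and 3.75, 4.52 and 7.23 CPM in control, a log2 fold change of 3.33 (adjusted p = 2.2e-10 in edgeR's test). In both genes every WRC09 drought library lay above every WRC09 control library. Over the other 39 cultivars, control means of LOC_Os02g12890 ran from 3.24 to 53.5 CPM and drought means from 8.59 to 107.6 CPM. Those of LOC_Os04g10750 ran from 1.34 to 37.7 CPM in control and from 4.12 to 60 CPM in drought. How far differences between plants of WRC09 enter these fold changes was not tested. The gene called lower, LOC_Os10g28510 on chromosome 10, held 0.482, 1.27 and 1.53 CPM in drought and 29.7, 7.52 and 56.8 CPM in control, a log2 fold change of -5.00 (adjusted p = 1.6e-09 in edgeR's test). Its mean change over the other 39 cultivars was 0.71. It is also among the 26 set apart by library name, with a change of -0.16 against C97 to C120 and 1.14 against C1 to C96. The WRC09 control libraries are C24, C69 and C102, and the lowest of the 3 values belongs to C69. LOC_Os03g63040 was lowest in C69 as well, with 42.4 CPM, against 75.2 CPM in C24 and 87.3 CPM in C102.

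**Figure D5:**
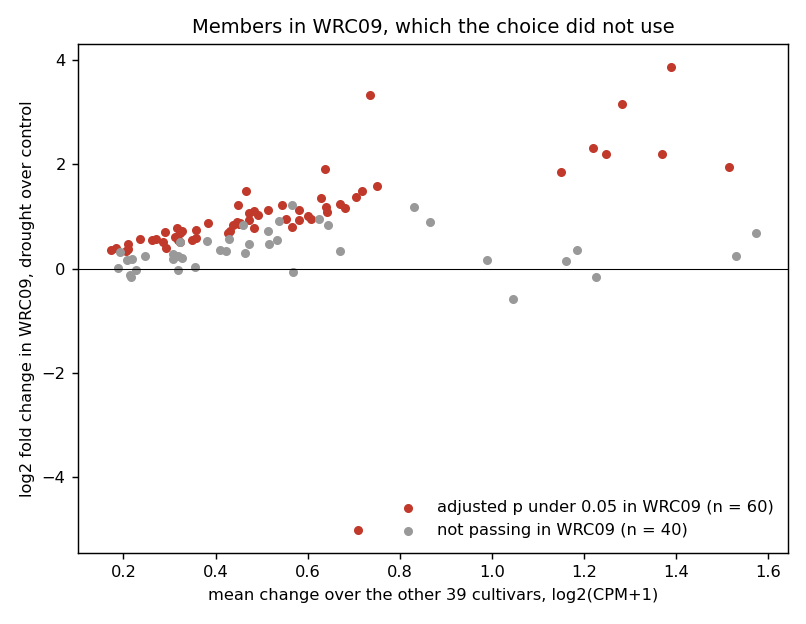
Log2 fold change of the 100 members in WRC09, drought over control (vertical axis), against their mean change over the other 39 cultivars on log2(CPM + 1) (horizontal axis). Red points pass an adjusted p under 0.05 in edgeR's test. Of the members, 92 lie above 0, and LOC_Os10g28510 lies at -5.00.

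Under irrigation most members differed among cultivars, at a lower share than over all genes. In edgeR's quasi-likelihood test over 120 control libraries of 40 cultivars, 90 of the 100 members passed an adjusted p under 0.05, against 97.4% of 26138 genes tested. Control levels enter the change that chose the members, so this result is only partly independent of the choice. Of the 10 members that did not pass, 9 are among the 26 that were higher in C97 to C120. With those libraries left out, an alternative chosen after seeing the data, 94 members passed, against 94.8% of genes. The SD of the cultivar means on log2(CPM + 1) had a median of 0.34 over members and 0.29 over all genes of at least 5 CPM. In 14 members the SD among irrigated cultivars exceeded the mean change in drought.

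The widest spread under irrigation was in LOC_Os05g22724 on chromosome 5, whose cultivar means ran from 0.436 CPM in WRC18 to 48.2 CPM in WRC44, with an SD of 1.33. This gene is among the 26, with a change of -0.16 against C97 to C120 and 1.68 against C1 to C96. WRC44 has a control library of C97 to C120 and WRC18 has none, so these extremes also differ in their control sets. LOC_Os01g36720 on chromosome 1 ran from 0.831 CPM in WRC57 to 41.2 CPM in WRC35, with an SD of 1.13. It had the largest mean drought change of all members, 1.57, and kept it against either control set, at 1.97 and 1.55. The evenest gene was LOC_Os08g36150 on chromosome 8, with 37.9 CPM in WRC48 and 56.7 CPM in WRC44 as its extremes and an SD of 0.107. LOC_Os03g59710 on chromosome 3 was nearly as even, between 32.6 CPM in WRC44 and 45.8 CPM in WRC37.

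KP and Dro1-NIL were each compared with IR64 under irrigation. Each of the 3 lines has 1 control library of C97 to C120 and 2 of C1 to C96. In KP, 17 members were higher than in IR64 by edgeR's quasi-likelihood test at adjusted p under 0.05 and a 2-fold difference, against 11.6% of all genes, and 2 were lower, against 10.0%. At any fold 26 members were higher and 4 lower, against 16.5% of genes each way. LOC_Os10g38610 on chromosome 10 held 34, 35 and 27.4 CPM in KP and 2.02, 4.02 and 2.72 CPM in IR64, a log2 fold change of 3.45 (adjusted p = 1.2e-05 in edgeR's test). LOC_Os06g04210 on chromosome 6 held 7.01, 8.94 and 7.54 CPM in KP and 1.35, 0.574 and 0.667 CPM in IR64, a log2 fold change of 3.22 (adjusted p = 3.9e-06 in edgeR's test). The groups did not overlap in either gene. The members lower in KP were LOC_Os12g18374 on chromosome 12, with 5.77, 5.83 and 6.22 CPM in KP and 14.9, 17.5 and 15.7 CPM in IR64, and LOC_Os10g28510, with 1.56, 1.19 and 3.97 CPM in KP and 3.03, 3.12 and 13.1 CPM in IR64. The groups overlapped in the second, and its call was lost in 6 of the alternatives tried.

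Dro1-NIL differed from IR64 in 0 of the 100 members by edgeR's test at adjusted p under 0.05 and a 2-fold difference, against 0.127% of all genes for either direction. At an unadjusted p under 0.05 the count was also 0, against 3.40% of genes, and DESeq2 gave 0. The members' log2 fold changes lay between -0.69 and 0.52 with a median of 0.04. The comparison with IR64 shares its IR64 libraries with that of KP.

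Members moved together from library to library, which the choice did not use within a cultivar. The median correlation between pairs of members, over deviations from the cultivar mean, was 0.245 in drought libraries and 0.159 in control libraries, against 0.007 and 0.005 over all genes of at least 5 CPM. These are descriptions over libraries that share depth, cultivar and library name, and in control libraries the division at C97 enters them.

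Drought libraries under 1000000 reads, which the choice left out, give a further look at their summed level, with no test. WRC28 drought 3 held a summed member level of 4969 CPM (95% counting interval 4759 to 5187), against 5638 and 5237 CPM in the other WRC28 drought libraries and 3705, 3994 and 4402 CPM in its controls. WRC02 drought 2 held 4990 CPM (4715 to 5277), against 6626 and 5170 CPM in the other drought libraries and 5282, 4363 and 4640 CPM in controls. WRC13 drought 1 held 5119 CPM (4867 to 5380), against 7403 and 6875 CPM in drought and 4771, 5299 and 5013 CPM in controls. On this scale the first lay above its controls, while the other two lay within theirs, and the WRC02 interval holds the value of another drought library. Their place depends on the scaling. Without TMM scaling, WRC13 drought 1 stood at 6249 unscaled CPM (5942 to 6568), above its controls of 4981, 5088 and 4926. WRC28 drought 3 stood at 5420 unscaled CPM, between 5480 and 4425 in the other drought libraries. WRC02 drought 2 stood at 5175 unscaled CPM, between 6741 and 4791 in the other drought libraries. The intervals are exact Poisson intervals and cover counting error only. WRC47 drought 3 was almost empty, with 1 read from a member, and says nothing about the list.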

How the data were processed

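The authors deposited raw read counts per gene model, 1 column per library, with identifiers of the MSU form; STAR, featureCounts 2.0.0 and the build IRGSP-1.0 are named, without roles or settings, by the submitters' processing notes. The strand setting, multi-mapping rule and annotation release are not given in the sources used here. Columns were joined to samples by library name, with 0 left over.

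From these counts, libraries of at least 1000000 reads were scaled by TMM in edgeR 4.0.16 (R 4.3.3), and CPM were computed. Members were found with a pseudocount of 1 CPM and a minimum mean of 5 CPM. Their choice and all lists were made with earlier results of these data known. Tests used glmQLFit and glmQLFTest on genes passing filterByExpr with a minimum count of 10, with 1 mean per cultivar and treatment and a trended dispersion estimated on 1500 genes and interpolated. Irrigated cultivars were tested over control libraries. Benjamini-Hochberg adjustment ran over all genes tested, with a threshold of 0.05, and for pairwise calls a fold of at least 2. DESeq2 1.42.0, RLE size factors, no filter, each replicate left out and the replicate number as a block were alternatives. The comparison of library names C97 to C120 with C1 to C96 was added after the data were seen, with cultivar as a term. The WRC09 contrast, the test over irrigated cultivars and the main comparison of the control sets were tried on simulated data. The other edgeR and DESeq2 fits were not. Tables were made in Python 3.11.15.

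Genes were named by a rule: at most 2 per direction and comparison, namely ranks 1 and 2, the largest and lowest fold changes in WRC09, the largest and smallest SD under irrigation, the largest called members in KP and Dro1-NIL, ranks 99 to 102 at the limit, and the most and least abundant member. Genes named for the library names were chosen after their values were seen. Leaving out libraries under 1000000 reads removed 4 drought libraries. Total counts of the used libraries ran from 2.61 M to 59.5 M (mega), with a median of 359 reads per member and library. Counting error was not compared with the spread between libraries. Relative to the level, it is larger at low counts, such as the 19 reads of LOC_Os03g53080 in WRC09 drought 3.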

Additional observations from a re-analysis of the deposited data

How the results depend on the processing

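The choice of the 100 genes was the least stable result. It kept 51 genes with all libraries, whatever their depth, and 21 when ranked by mean change alone, and between 55 and 69 with a replicate number left out. It kept 73 without control libraries C97 to C120, 36 with them as the only controls in 23 cultivars, and 64 with C1 to C96 as the only controls in the same cultivars. The median change over the genes then chosen was 0.66 with all libraries and 0.87 by mean change alone, and 0.43 to 0.49 without a replicate number. With C97 to C120 as the only controls, 3 of the named genes reversed, to -0.11 for LOC_Os03g63040, -0.16 for LOC_Os05g22724 and -0.16 for LOC_Os10g28510. In WRC09 10 to 24 members were called without a replicate and 59 at any fold. KP gave 30 at any fold and 13 to 16 without a replicate, and irrigated cultivars gave 77 to 86 without a replicate. Members called higher in C97 to C120 numbered 24 to 27 without replicate 1 or 2 and members called lower 7 to 9. DESeq2, run for WRC09, KP, Dro1-NIL, irrigated cultivars and the control sets, moved none of those counts by over 1.5 times; it was not run on D97 to D120. The cause of these shifts was not tested.

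Replicate numbers were checked for pairing: 50.5% of same-numbered pairs of libraries correlated above 0.1 in their deviations, with a median of 0.10, and 47.6% of drought libraries correlated best with the control library of their own number. The own number is 1 of 3 candidates for each drought library. The labels name no shared plant, batch or day for a number, and the rule of every pair above 0.1 was not met, so numbers were not used to pair libraries. With replicate number as a block, 89 of the 100 genes were kept, the median change was 0.46, 26 members were called higher in WRC09, 98 differed among irrigated cultivars, 20 differed in KP and 0 in Dro1-NIL. Between the control sets, the block gave 16 members higher and 0 lower in C97 to C120. Depth limits the 4 drought libraries under 1000000 reads, where single members cannot be read.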
